A study of Mus musculus with 192 samples.

Results

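The potassium channel genes of the mouse hippocampus were taken as every protein-coding gene of the count table whose GENCODE vM21 symbol begins with Kcn, with Kcnj13, a channel of the choroid plexus, left out. That gave 93 genes among 21397 protein-coding genes and 40254 annotated genes of the table. Polyadenylated RNA was sequenced from the hippocampus of 192 mice, in 24 groups of 8 mice with 4 of each sex. zQ175 mice (96 libraries) carry an expanded CAG repeat knocked into the mouse Htt gene and model Huntington's disease, and wild-type (WT) mice (96 libraries) do not. Mice of both genotypes received HTT-10150, a small interfering RNA (siRNA) against full-length HTT, or HTT-634 together with HTT-486 (here HTT-634.486) against HTT1a, a short transcript of the same gene, or a non-targeting siRNA (NTC), or were left untreated. In regimen 2[4]6 the siRNA was given at 2 months of age and tissue was taken at 6 months. In 6[4]10 it was given at 6 months, and in 2.6[8]10 at both ages, with tissue taken at 10 months in either case. Untreated mice belong to a regimen by their age and label alone. The labels used here do not say whether the zQ175 mice carried 1 or 2 knock-in alleles.

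Potassium channels let potassium leave the cell and so set the resting potential, repolarise the action potential and limit repetitive firing. Voltage-gated Kv channels assemble from pore-forming subunits, with beta subunits and KChIP proteins as cytoplasmic partners and with electrically silent subunits that act only together with Kv2. Calcium-activated channels (BK, SK) shape the afterhyperpolarisation, Kv7 channels carry the M-current of pyramidal neurons, inward rectifiers (Kir) hold the resting potential and answer G protein-coupled receptors, and two-pore-domain (K2P) channels carry leak current. In the hippocampus Kv1 subunits with Kvbeta are concentrated in axons, Kv4 with KChIP in the dendrites of pyramidal cells, Kv3 in fast-firing interneurons and mossy fibres, and Kir4.1 in astrocytes.

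The 250 bases before the annotated start, read from RefSeq on GRCm38.p6, are shown for 4 members that were lower in zQ175 mice and for 1 that was higher, since the comparisons that follow turn on them. Capitals mark matches on either strand to the GC box GGGCGG, the cyclic AMP element TGACGTCA, the TATA box TATAAA or the E box CACGTG, and each sequence is written 5′ to 3′ on the gene's own strand. 
Kcnk4: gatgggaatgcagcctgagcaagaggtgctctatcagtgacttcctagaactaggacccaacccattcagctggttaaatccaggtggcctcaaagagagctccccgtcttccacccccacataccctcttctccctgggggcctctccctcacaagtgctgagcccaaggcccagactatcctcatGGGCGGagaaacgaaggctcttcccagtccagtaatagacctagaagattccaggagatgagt
Kcnab2: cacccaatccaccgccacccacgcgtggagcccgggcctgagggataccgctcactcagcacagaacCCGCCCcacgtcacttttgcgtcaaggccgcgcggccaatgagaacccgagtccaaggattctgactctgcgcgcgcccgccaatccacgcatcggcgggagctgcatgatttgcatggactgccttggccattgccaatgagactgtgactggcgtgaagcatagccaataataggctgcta
Kcnc1: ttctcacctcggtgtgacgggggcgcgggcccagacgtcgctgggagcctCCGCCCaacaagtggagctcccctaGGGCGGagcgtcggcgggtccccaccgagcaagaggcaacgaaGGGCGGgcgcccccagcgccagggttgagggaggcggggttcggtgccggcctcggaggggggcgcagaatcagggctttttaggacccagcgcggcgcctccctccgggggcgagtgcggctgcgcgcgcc
Kcnh7: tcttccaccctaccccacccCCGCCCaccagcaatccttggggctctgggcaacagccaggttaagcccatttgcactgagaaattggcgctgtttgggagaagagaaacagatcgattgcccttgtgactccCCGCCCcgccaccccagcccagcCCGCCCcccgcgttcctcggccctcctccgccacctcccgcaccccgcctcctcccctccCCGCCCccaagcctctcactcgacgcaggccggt
Kcnk2: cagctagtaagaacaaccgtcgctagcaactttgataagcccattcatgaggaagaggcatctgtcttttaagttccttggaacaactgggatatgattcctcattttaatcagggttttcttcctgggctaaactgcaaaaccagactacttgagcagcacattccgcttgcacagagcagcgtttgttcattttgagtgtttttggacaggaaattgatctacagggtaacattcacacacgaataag
Kcnk4 lies at chr19:6934516-6934765 (minus strand), Kcnab2 at chr4:152477550-152477799 (minus strand), Kcnc1 at chr7:46396218-46396467 (plus strand), Kcnh7 at chr2:63184288-63184537 (minus strand) and Kcnk2 at chr1:189402274-189402523 (minus strand), these being the windows shown. Where a gene has several listed starts, the window nearest its GENCODE start is shown. Kcnab2 has 3 windows and Kcnk2 has 4, and the starts used lie 322 and 0 bases from the GENCODE start. The Kcnab2 window thus lies inside the GENCODE gene, and other starts were not described. The GC box was found 1 time in the Kcnk4 window, 1 time in that of Kcnab2, 3 times in that of Kcnc1, 4 times in that of Kcnh7 and not in that of Kcnk2. Of the lower members whose windows are not shown, Kcnip2 had 2 GC boxes and Kcnab1 and Kcng4 had 0. The windows shown thus do not stand for all lower members. A GC box was present in 32.7% of all 32851 windows of this length and in 45.2% of the 93 windows listed for 68 of the 93 members, some of which have several starts. A TATA box was present in 12.4% of all windows and 2.15% of members' windows, an E box in 6.02% and 6.45%, and the cyclic AMP element in 1.55% and 0.0%. The Kcnc1 window was the richest of the 5 in G and C (74.4%) and the Kcnk2 window the poorest (42.4%), against a median of 52.4% over all windows. These letters describe the windows and say nothing on binding.

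Levels between genes were compared per kilobase of exon, as CPM (counts scaled to a common library size) divided by exon length, in the 24 untreated zQ175 and the 24 untreated WT mice. Kcnab2, the Kvbeta2 subunit that escorts Kv1 channels to the axon, was the most abundant member, at 121.5 ± 6.89 in zQ175 mice and 145.9 ± 10.9 in WT mice (SD, n = 24 each, as for the values that follow). Next in order were Kcnip2, which encodes the Kv4 partner KChIP2, at 42.03 ± 4.66 in zQ175 mice and 48.3 ± 5.13 in WT mice, and Kcna1, the Kv1.1 subunit, at 40.8 ± 3.76 in zQ175 mice and 48.2 ± 2.33 in WT mice. Their WT means differ by less than their spread. Kcnk1 (TWIK-1) led the K2P channels at 38.2 ± 3.13 in zQ175 mice and 38.9 ± 3.09 in WT mice. Among inward rectifiers Kcnj3, the Kir3.1 subunit of G protein-gated channels, stood first at 30.3 ± 2.36 in zQ175 mice and 32.8 ± 2.43 in WT mice. Kcnd2 (Kv4.2) led the Kv4 subunits at 26.1 ± 2.27 in zQ175 mice and 27.3 ± 1.81 in WT mice, Kcnh3 (Kv12.2) the EAG family at 12.5 ± 1.16 in zQ175 mice and 15.2 ± 1.22 in WT mice, Kcnf1 the silent subunits at 13.5 ± 2.01 in zQ175 mice and 13.5 ± 1.43 in WT mice and Kcnmb4 (BK beta 4) the BK beta subunits at 12.8 ± 0.747 in zQ175 mice and 12.4 ± 1.11 in WT mice. Lower leaders were Kcnn2 (SK2) at 6.22 ± 0.449 in zQ175 mice and 7.26 ± 0.623 in WT mice and Kcnt1, a sodium-activated channel, at 4.85 ± 0.620 in zQ175 mice and 4.82 ± 0.636 in WT mice. Kcne2 led the small KCNE subunits at 4.69 ± 7.59 in zQ175 mice and 4.52 ± 8.30 in WT mice, with a spread larger than its mean, and Kcnrg, the only member outside the 15 other classes, stood at 0.172 ± 0.0748 in zQ175 mice and 0.152 ± 0.0675 in WT mice. In all, 25 members reached 10 CPM per kb in untreated WT mice, 37 lay from 1 to 10 and 31 lay under 1. Together the 93 members held between 0.404% and 0.517% of the counts of a library.

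**Figure D1:**
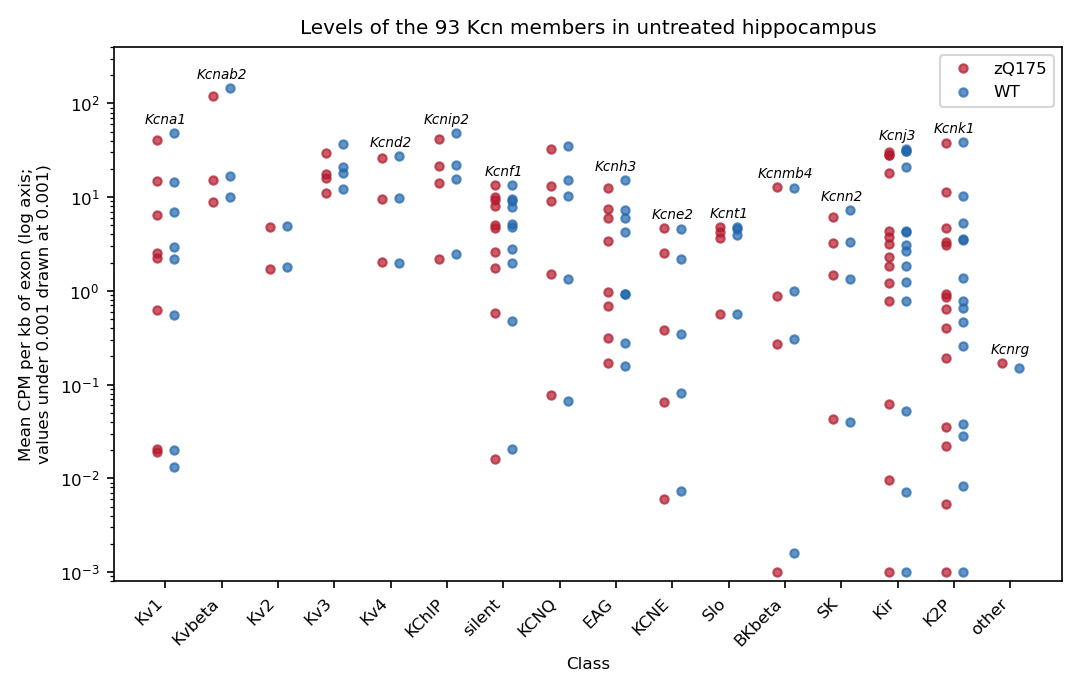
Mean CPM per kilobase of exon on a log axis for each of the 93 members (points, grouped by class on the horizontal axis) in untreated zQ175 mice (red, left) and untreated WT mice (blue, right), 24 mice each, with the leading members given in the text named. Values under 0.001 are drawn at 0.001, and Kcnab2 stands above all other members, at 121.5 in zQ175 mice and 145.9 in WT mice.

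Low counts kept 13 members out of every test, namely Kcna7, Kcna10, Kcne1, Kcne3, Kcnj1, Kcnj15, Kcnk7, Kcnk15, Kcnk16, Kcnk18, Kcnmb3, Kcnn4 and Kcnv2. The highest value of any of them in any of the 192 libraries was 0.787 CPM, for Kcnn4. Kcnj5, Kcnq1 and Kcnrg were tested in 2[4]6 and 6[4]10 and missed the filter in 2.6[8]10, which left 80, 80 and 77 members tested in 2[4]6, 6[4]10 and 2.6[8]10.

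Total counts per library ranged from 8441632 to 55955529 in 2[4]6, from 13376471 to 41269383 in 6[4]10 and from 12999992 to 65748954 in 2.6[8]10. Htt fell by 0.44, 0.69 and 0.92 on the log2 scale in zQ175 mice given HTT-10150, relative to those given NTC, in 2[4]6, 6[4]10 and 2.6[8]10. One library went against its labelled tissue: female 1 of the WT HTT-10150 group in 2.6[8]10 held 282 CPM of the striatal dopamine receptor gene Drd1, against at most 13.6 CPM in the other libraries, and 3.15 CPM of the pyramidal cell gene Neurod6, against at least 82.7 CPM in them. Its 10 thalamic and striatal markers summed to 6000 CPM, against a group median of 199.6 CPM. Of 73 members above 1 CPM in the median library, 20 had their highest and 26 their lowest value of all 192 libraries in this one. Kcna5 (Kv1.5) stood at 28.03 CPM there, against 1.58 CPM as the median of the other 7 mice of the group, Kcnh4 (Kv12.3) at 54.2 against 3.84 CPM and Kcnj6, the Kir3.2 subunit, at 0.489 against 25.7 CPM. Because all groups of a regimen share 1 estimate of the spread, most counts of 2.6[8]10 are given with and without this library. Counts given only with it include those for sex, for the interaction tests and for channel partners. In 3 libraries the sex-linked transcripts went against or lacked the labelled sex (male 4 and female 4 of the zQ175 HTT-10150 group in 6[4]10 and female 2 of the WT NTC group in 2.6[8]10). Markers of the choroid plexus varied widely between libraries: Ttr, the main choroid plexus transcript, exceeded 1000 CPM in 22 zQ175 and 21 WT libraries. Kcnj13, the choroid plexus channel left out of the members, reached 59.6 CPM in the highest zQ175 library and 82.7 CPM in the highest WT library.

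**Figure D2:**
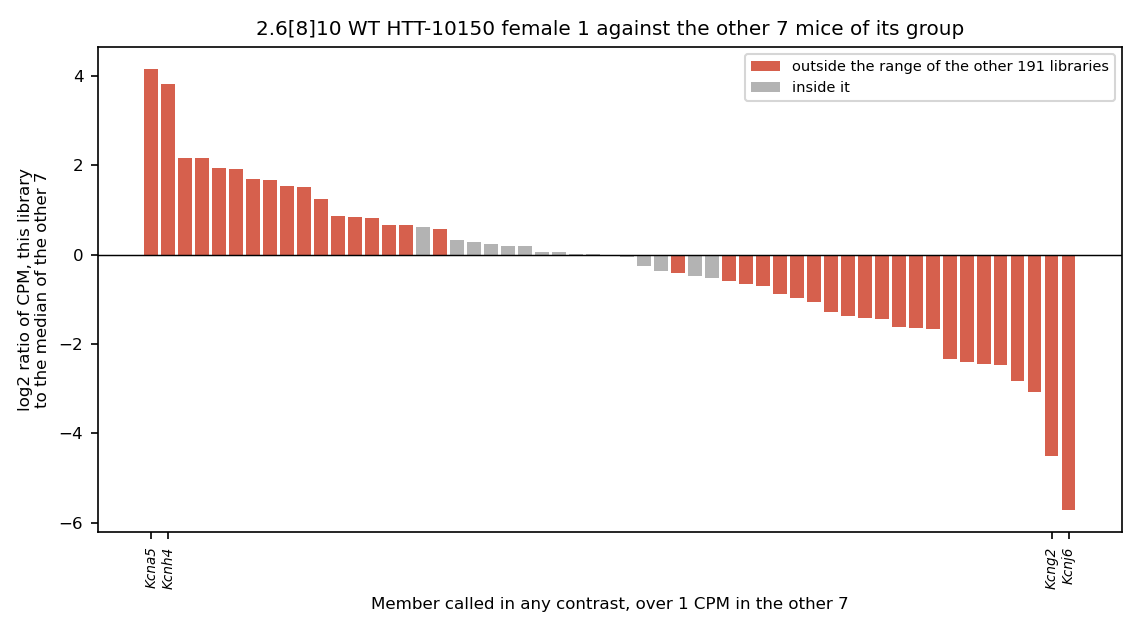
Bars show, for each member called in any contrast and above 1 CPM in the other 7 mice, the log2 ratio of CPM in female 1 of the 2.6[8]10 WT HTT-10150 group to the median of the other 7 mice (vertical axis), ordered from highest to lowest. Red bars are values outside the range of all other libraries. Kcna5 and Kcnh4 stand highest and Kcng2 and Kcnj6 lowest, and these are the bars named.

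Whether channel genes differ between zQ175 and WT mice was asked first in untreated animals. Most called members were lower in zQ175 mice, at 6 months and at 10 months of age. In 2[4]6, 5 of 80 tested members fell and 1 rose (edgeR, adjusted p under 0.05), against 2.29% of all tested genes lowered and 1.86% raised. In 6[4]10, 15 fell and 2 rose, against 6.19% and 5.35% of all genes. In 2.6[8]10, 10 of 77 fell and 0 rose, against 6.45% and 4.66%. The share of members lowered was thus 6.25%, 18.8% and 13%. The median log2 change over the tested members was -0.06, -0.12 and -0.09 in 2[4]6, 6[4]10 and 2.6[8]10, and 0.0023, 0.0096 and 0.0015 over all tested genes. Without the library with striatal markers, 16 members were called in 2.6[8]10, 14 lowered and 2 raised, against 16.4% of all genes, and these include all 10 called with it. Without the 43 libraries rich in Ttr, 1 member was called in 2[4]6 (Kcnn2), 14 in 6[4]10 and 6 in 2.6[8]10, against 2%, 9.84% and 5.79% of all genes. With each replicate number left out in turn, 2 to 4 members were called in 2[4]6, 9 to 14 in 6[4]10 and 5 to 10 in 2.6[8]10. The share of all genes called in such smaller fits is not given, here or below.

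**Figure D3:**
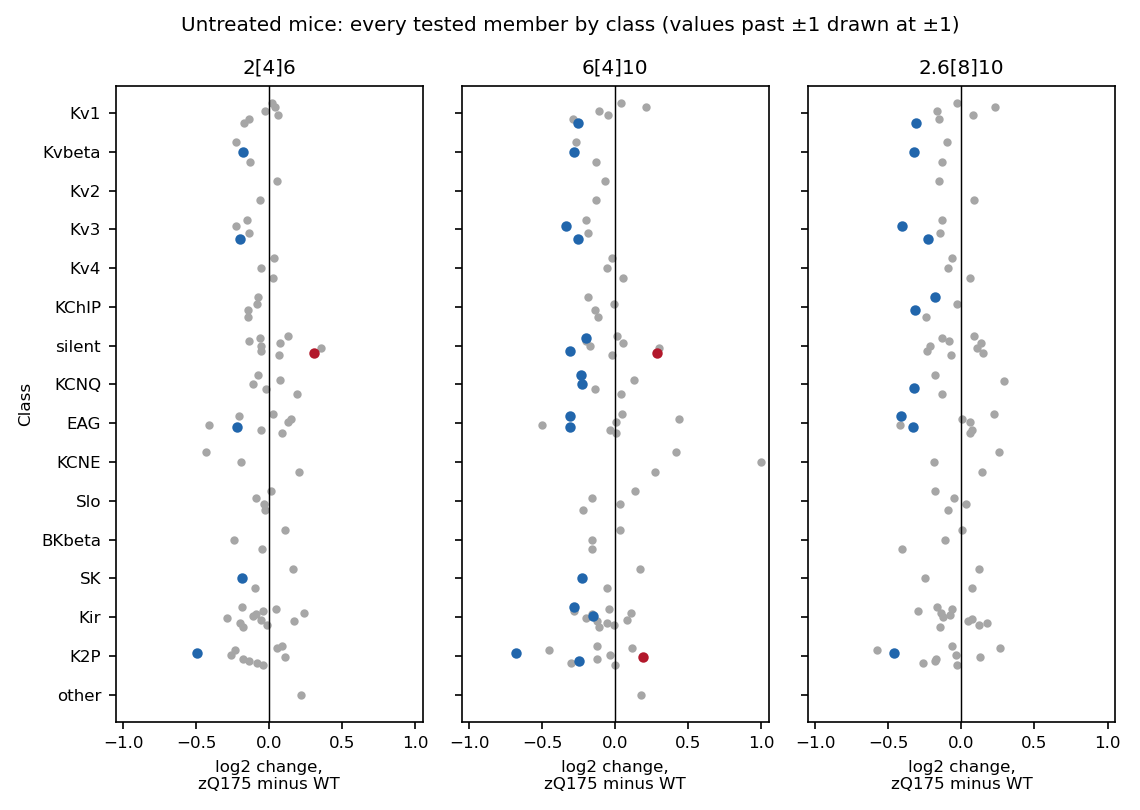
Each point is 1 tested member, placed by its log2 change (zQ175 minus WT, untreated mice, horizontal axis) and its class (vertical axis), with a panel per regimen. Blue points fell and red points rose at an adjusted p under 0.05, and grey points were not called. Values past 1 are drawn at 1. The called members are mostly on the left, 5 of 6 in 2[4]6, 15 of 17 in 6[4]10 and 10 of 10 in 2.6[8]10.

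Over the 4 treatments and 3 regimens, 44 members were called in at least 1 of 12 genotype comparisons, 35 of them only as lowered, 9 only as raised and 0 in both directions. Of the 77 members tested in all 12, 19 had a log2 change below 0 in every one and 4 above 0 in every one, against 8.4% and 7.81% of the 15821 genes tested in all 12, and 33 were never called, against 59.1% of those genes. Treatment groups of a regimen are separate mice, while the 12 comparisons share the estimate of the spread within a regimen. Called in 1 direction in at least 2 regimens, in untreated or in NTC mice, were 14 members, 12 that were lower and 2 that were higher. Of all 16348 genes tested in at least 2 regimens, 5.69% were lower and 3.97% higher by this rule, and of the 80 members 15% and 2.5%. Of the lower ones Kcna1, Kcnab1, Kcnab2, Kcnc1, Kcnip2, Kcng4, Kcnq3, Kcnh3, Kcnh7, Kcnn2 and Kcnk4, and both higher ones, Kcng1 and Kcnk2, are described by role, with values as the lowest, median and highest of 8 untreated mice in CPM scaled by trimmed mean of M values (TMM) factors. These members were chosen by calls on the same mice. Groups that do not overlap are therefore no independent result, and the share of all genes so separated is not given. The same holds for members called in the siRNA comparisons.

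**Figure D4:**
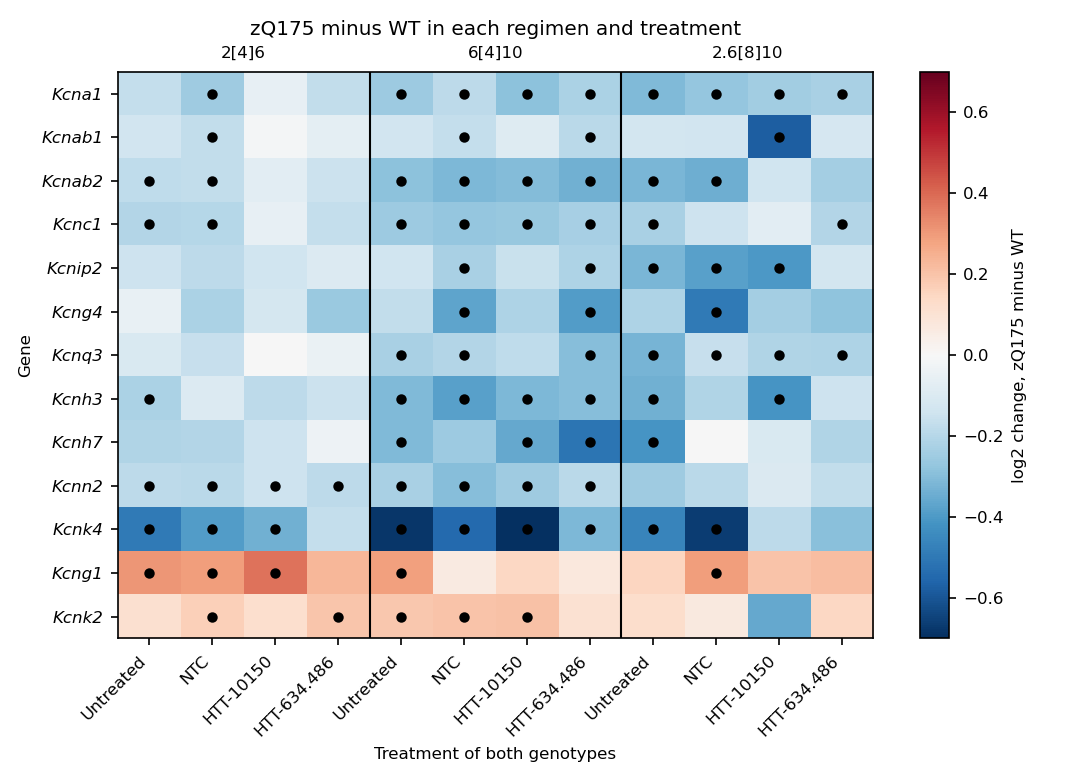
Colour gives the log2 change (zQ175 minus WT) of the members described by role (rows) in each regimen and treatment (columns), with a black dot where the adjusted p was under 0.05. The lowered members shown are below 0 in every column, Kcng1 is above 0 in every column and Kcnk2 in all but 1, and Kcnk4 reaches -0.70 in 6[4]10 HTT-10150 mice.

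Of the Kv1 channels and their beta subunits, Kcna1, Kcnab1 and Kcnab2 fell. Kcna1 encodes Kv1.1, an axonal subunit that limits transmitter release. Kcna1 in 2[4]6 had 183.9, 201 and 241.9 CPM in zQ175, against 212, 240.6 and 253.3 CPM in WT. Kcna1 in 6[4]10 had 162.5, 192 and 199.9 CPM in zQ175, against 217, 225 and 240.7 CPM in WT. Kcna1 in 2.6[8]10 had 169.3, 188 and 204 CPM in zQ175, against 221, 230.8 and 239 CPM in WT. The groups did not overlap in either regimen collected at 10 months, while in 2[4]6 the change did not pass the test. Log2 changes of Kcna1 (zQ175 minus WT) were -0.17 (SE 0.05, adjusted p = 0.0573), -0.25 (SE 0.06, adjusted p = 0.00186) and -0.31 (SE 0.05, adjusted p = 1.26e-05) in 2[4]6, 6[4]10 and 2.6[8]10. Kcnab2 in 2[4]6 had 601, 682 and 736 CPM in zQ175, against 714, 751 and 904 CPM in WT. Kcnab2 in 6[4]10 had 635, 679.5 and 747 CPM in zQ175, against 789, 821 and 905 CPM in WT. Kcnab2 in 2.6[8]10 had 646, 665 and 726 CPM in zQ175, against 747, 857 and 899 CPM in WT. All 8 zQ175 mice lay below all 8 WT mice in 6[4]10 and in 2.6[8]10, and 6 of 8 did so in 2[4]6. On the log2 scale Kcnab2 changed by -0.18 (SE 0.05, adjusted p = 0.0379), -0.29 (SE 0.05, adjusted p = 8.23e-05) and -0.32 (SE 0.08, adjusted p = 0.00437) in 2[4]6, 6[4]10 and 2.6[8]10. Kcnab1, the Kvbeta1 subunit that confers fast inactivation on Kv1 channels, was called in NTC mice of 2[4]6 and 6[4]10, at -0.17 (SE 0.04, adjusted p = 0.0117) and -0.17 (SE 0.05, adjusted p = 0.0102). Its changes in untreated mice were -0.13, -0.13 and -0.13 and were not called with all libraries. In untreated mice of 2.6[8]10 Kcnab1 was called without the library with striatal markers, at -0.12 (SE 0.04, adjusted p = 0.0363). In HTT-10150 mice of 2.6[8]10 Kcnab1 was at -0.58 (SE 0.14, adjusted p = 0.00495), and without that library at -0.15 (SE 0.04, adjusted p = 0.0196). Of the other Kv1 subunits, Kcna2, Kcna3 and Kcna6 were called in 0 of 12 genotype comparisons, and Kcna4 and Kcna5 in 1 each, the 2.6[8]10 HTT-10150 comparison that holds the library with striatal markers.

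Kcnc1 encodes Kv3.1, a subunit of the Kv3 channels, which repolarise fast-spiking cells and mossy fibre terminals, and it fell. Kcnc1 in 2[4]6 had 145.9, 172.1 and 200.2 CPM in zQ175, against 176.1, 194 and 220.1 CPM in WT. Kcnc1 in 6[4]10 had 136, 169.8 and 183 CPM in zQ175, against 183.9, 199 and 214 CPM in WT. Kcnc1 in 2.6[8]10 had 152, 169.1 and 181.5 CPM in zQ175, against 173, 194 and 209.9 CPM in WT. Kcnc1 passed the test in all 3 regimens, and the groups were apart in 6[4]10 only. Kcnc1 had log2 changes of -0.20 (SE 0.06, adjusted p = 0.0491), -0.26 (SE 0.06, adjusted p = 0.00147) and -0.23 (SE 0.05, adjusted p = 0.00203) in 2[4]6, 6[4]10 and 2.6[8]10. Kcnc2 (Kv3.2), which marks fast-spiking interneurons, changed by -0.14, -0.18 and -0.15 in untreated mice and was not called. Beside these, the 8 interneuron markers summed to 736, 699.6 and 671 CPM in the median untreated zQ175 mouse of 2[4]6, 6[4]10 and 2.6[8]10, against 857, 795 and 772 CPM in WT mice, with 4, 3 and 1 of 8 lowered and 0 raised. In bulk tissue, fewer cells of a type and less RNA per cell cannot be told apart, and the part of cell numbers in these results was not tested.

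The Kv4 pore-forming subunits Kcnd1, Kcnd2 and Kcnd3 were not called in untreated or NTC mice with all libraries, while their partner Kcnip2 was lower. Kcnd1 was called higher in NTC mice of 2.6[8]10 without the library with striatal markers, at 0.19 (SE 0.06, adjusted p = 0.0208). KChIP2 raises the surface density of Kv4 channels. Kcnip2 in 2[4]6 had 136, 148.6 and 165.6 CPM in zQ175, against 133.3, 165 and 200.1 CPM in WT. Kcnip2 in 6[4]10 had 123.6, 151.3 and 183 CPM in zQ175, against 150.9, 161.1 and 199 CPM in WT. Kcnip2 in 2.6[8]10 had 117, 135.4 and 175.35 CPM in zQ175, against 147.4, 165.6 and 203 CPM in WT. The groups overlapped in all 3 regimens, and 7 of 8 zQ175 mice of 2.6[8]10 lay below every WT mouse. The log2 changes of Kcnip2 were -0.14 (SE 0.06, adjusted p = 0.249), -0.14 (SE 0.07, adjusted p = 0.236) and -0.32 (SE 0.11, adjusted p = 0.0405) in 2[4]6, 6[4]10 and 2.6[8]10. In NTC mice Kcnip2 was called in 6[4]10 and 2.6[8]10, at -0.23 (SE 0.07, adjusted p = 0.0217) and -0.38 (SE 0.11, adjusted p = 0.0122). Kcnip4 (KChIP4), which lies on the chromosome of Htt at a distance of 13.63 Mb, fell in untreated mice of 2.6[8]10 by 0.18 on the log2 scale.

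Silent subunits moved in both directions. Kcng1 (Kv6.1), which modifies Kv2 channels, was higher. Kcng1 in 2[4]6 had 36.2, 42.01 and 48.8 CPM in zQ175, against 30.1, 34.04 and 38.1 CPM in WT. Kcng1 in 6[4]10 had 38.7, 43.2 and 50.1 CPM in zQ175, against 29.3, 35.8 and 40.9 CPM in WT. Kcng1 in 2.6[8]10 had 36.95, 39.4 and 47.2 CPM in zQ175, against 32.7, 34.9 and 43.6 CPM in WT. In 2[4]6 and 6[4]10, 7 of 8 zQ175 mice lay above every WT mouse, and in 2.6[8]10 only 2 did. Log2 changes of Kcng1 (zQ175 minus WT) were 0.31 (SE 0.08, adjusted p = 0.0142), 0.29 (SE 0.07, adjusted p = 0.00207) and 0.15 (SE 0.08, adjusted p = 0.217) in 2[4]6, 6[4]10 and 2.6[8]10. Kcng4 (Kv6.4), a gene of low level, fell in NTC mice. Kcng4 in 2[4]6 had 5.72, 6.68 and 11.4 CPM in zQ175, against 7.09, 7.46 and 8.82 CPM in WT. Kcng4 in 6[4]10 had 5.11, 6.52 and 7.23 CPM in zQ175, against 6.53, 7.08 and 8.16 CPM in WT. Kcng4 in 2.6[8]10 had 4.49, 5.48 and 13.6 CPM in zQ175, against 6.69, 7.61 and 8.38 CPM in WT. The groups overlapped in each regimen. On the log2 scale Kcng4 changed by -0.05 (SE 0.13, adjusted p = 0.927), -0.17 (SE 0.11, adjusted p = 0.333) and -0.22 (SE 0.16, adjusted p = 0.449) in 2[4]6, 6[4]10 and 2.6[8]10. It was not called in untreated mice and was called in NTC mice of 6[4]10 and 2.6[8]10, at -0.37 (SE 0.11, adjusted p = 0.0118) and -0.49 (SE 0.17, adjusted p = 0.0459). Within zQ175 mice of 2.6[8]10, Kcng4 was also lower in NTC than in untreated mice. That call, at -0.56 (SE 0.15, adjusted p = 0.027), came from the fit without the library with striatal markers. Kcng2 (Kv6.2) fell in untreated 6[4]10 mice, at -0.31 (SE 0.08, adjusted p = 0.00558), and so did Kcns3 (Kv9.3), at -0.20 (SE 0.07, adjusted p = 0.0349).

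Kcnq3, which encodes the Kv7.3 subunit of the neuronal M-channel, fell. Kcnq3 in 2[4]6 had 175.4, 212 and 253.2 CPM in zQ175, against 211, 227 and 272 CPM in WT. Kcnq3 in 6[4]10 had 162.7, 190.6 and 210.2 CPM in zQ175, against 209, 226.5 and 235.999 CPM in WT. Kcnq3 in 2.6[8]10 had 160.6, 167 and 181.02 CPM in zQ175, against 177, 209.6 and 252.6 CPM in WT. In both regimens of 10 months 7 of 8 zQ175 mice lay below every WT mouse, against 4 of 8 in 2[4]6. Kcnq3 had log2 changes of -0.11 (SE 0.07, adjusted p = 0.518), -0.23 (SE 0.07, adjusted p = 0.0145) and -0.32 (SE 0.06, adjusted p = 2.59e-05) in 2[4]6, 6[4]10 and 2.6[8]10. Kcnq5 (Kv7.5) was called in untreated 6[4]10 mice, at -0.23 (SE 0.07, adjusted p = 0.0209).

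Of the EAG family, Kcnh3 and Kcnh7 fell. Kcnh3 encodes Kv12.2, which in mouse hippocampal pyramidal cells opens near rest and lowers excitability. Kcnh3 in 2[4]6 had 64.5, 71.3 and 80.4 CPM in zQ175, against 79.3, 82.5 and 96.01 CPM in WT. Kcnh3 in 6[4]10 had 65.3, 69.2 and 85.2 CPM in zQ175, against 86.4, 91.9 and 95.3 CPM in WT. Kcnh3 in 2.6[8]10 had 58.8, 70.9 and 77.4 CPM in zQ175, against 76.4, 86.1 and 99.3 CPM in WT. Kcnh3 was called in all 3 regimens, with no overlap in 6[4]10. The log2 changes of Kcnh3 were -0.22 (SE 0.06, adjusted p = 0.0227), -0.31 (SE 0.06, adjusted p = 0.000305) and -0.33 (SE 0.07, adjusted p = 0.00123) in 2[4]6, 6[4]10 and 2.6[8]10. Exons of Kcnh3 overlap those of Mcrs1 on the opposite strand, and Mcrs1 (median 56.0 CPM) changed by -0.01, -0.06 and -0.02 and was not called. Kcnh7 encodes the ERG channel Kv11.3. Kcnh7 in 2[4]6 had 47.95, 61.4 and 77.0 CPM in zQ175, against 62.5, 72.1 and 84.5 CPM in WT. Kcnh7 in 6[4]10 had 35.2, 50.2 and 56.7 CPM in zQ175, against 50.3, 59.7 and 74.03 CPM in WT. Kcnh7 in 2.6[8]10 had 37.5, 44.4 and 52.5 CPM in zQ175, against 49.0, 62.2 and 66.7 CPM in WT. The groups overlapped in each regimen. Log2 changes of Kcnh7 (zQ175 minus WT) were -0.21 (SE 0.07, adjusted p = 0.107), -0.31 (SE 0.10, adjusted p = 0.0253) and -0.41 (SE 0.09, adjusted p = 0.000956) in 2[4]6, 6[4]10 and 2.6[8]10. Its exons overlap Gca on the opposite strand (median 17.6 CPM), which rose in 6[4]10 by 0.23 (adjusted p = 0.0122). Whether the counts used strand is not stated, so reads of such pairs may not be separated.

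Calcium-activated channels were represented by Kcnn2, the SK2 subunit of the medium afterhyperpolarisation and of dendritic spines. Kcnn2 in 2[4]6 had 43.8, 46.7 and 49.1 CPM in zQ175, against 49.2, 53.4 and 57.6 CPM in WT. Kcnn2 in 6[4]10 had 43.7, 48.8 and 55.8 CPM in zQ175, against 50.8, 56.1 and 66.1 CPM in WT. Kcnn2 in 2.6[8]10 had 40.1, 43.5 and 47.4 CPM in zQ175, against 47.8, 51.1 and 61.7 CPM in WT. The groups did not overlap in 2[4]6 and in 2.6[8]10. On the log2 scale Kcnn2 changed by -0.18 (SE 0.04, adjusted p = 0.00257), -0.23 (SE 0.06, adjusted p = 0.00286) and -0.25 (SE 0.09, adjusted p = 0.0701) in 2[4]6, 6[4]10 and 2.6[8]10. In 2.6[8]10 the change missed the threshold with all libraries and passed it without the library with striatal markers, at -0.24 (SE 0.05, adjusted p = 0.000327). The SK subunits Kcnn1 and Kcnn3 were not called in untreated or NTC mice with all libraries, and without that library Kcnn3 was called higher in NTC mice of 2.6[8]10, at 0.26 (SE 0.09, adjusted p = 0.0284). The BK pore subunit Kcnma1 changed by -0.03, -0.22 and -0.09 in untreated mice and was not called.

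The largest change of the 14 was that of Kcnk4, which encodes TRAAK, a K2P leak channel opened by stretch and by polyunsaturated fatty acids. Kcnk4 in 2[4]6 had 3.49, 4.21 and 5.204 CPM in zQ175, against 5.42, 5.85 and 6.62 CPM in WT. Kcnk4 in 6[4]10 had 3.41, 4.09 and 4.82 CPM in zQ175, against 5.67, 6.78 and 7.54 CPM in WT. Kcnk4 in 2.6[8]10 had 3.57, 4.09 and 5.06 CPM in zQ175, against 4.62, 5.78 and 6.63 CPM in WT. In 2[4]6 and 6[4]10 all 8 zQ175 mice lay below all 8 WT mice, and in 2.6[8]10 6 of 8 did. Kcnk4 had log2 changes of -0.50 (SE 0.11, adjusted p = 0.00224), -0.68 (SE 0.09, adjusted p = 2.07e-07) and -0.46 (SE 0.15, adjusted p = 0.034) in 2[4]6, 6[4]10 and 2.6[8]10. Exons of Kcnk4 overlap those of Catsperz, a sperm channel gene on the same strand, and RSEM divides shared reads between them. Catsperz had a median of 0.613 CPM against 5.05 CPM for Kcnk4 and also had log2 changes of -0.86 (adjusted p = 0.00658), -0.75 (adjusted p = 0.0287) and -0.71 (adjusted p = 0.12), of which the third missed the threshold. Kcnk2 (TREK-1), a related channel, rose in untreated 6[4]10 mice, at 0.19 (SE 0.05, adjusted p = 0.0111), and in NTC mice of 2[4]6 and 6[4]10, at 0.17 (SE 0.04, adjusted p = 0.00879) and 0.20 (SE 0.05, adjusted p = 0.00597). Kcnk12 (THIK-2) fell in untreated 6[4]10 mice, at -0.25 (SE 0.08, adjusted p = 0.0392).

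**Figure D5:**
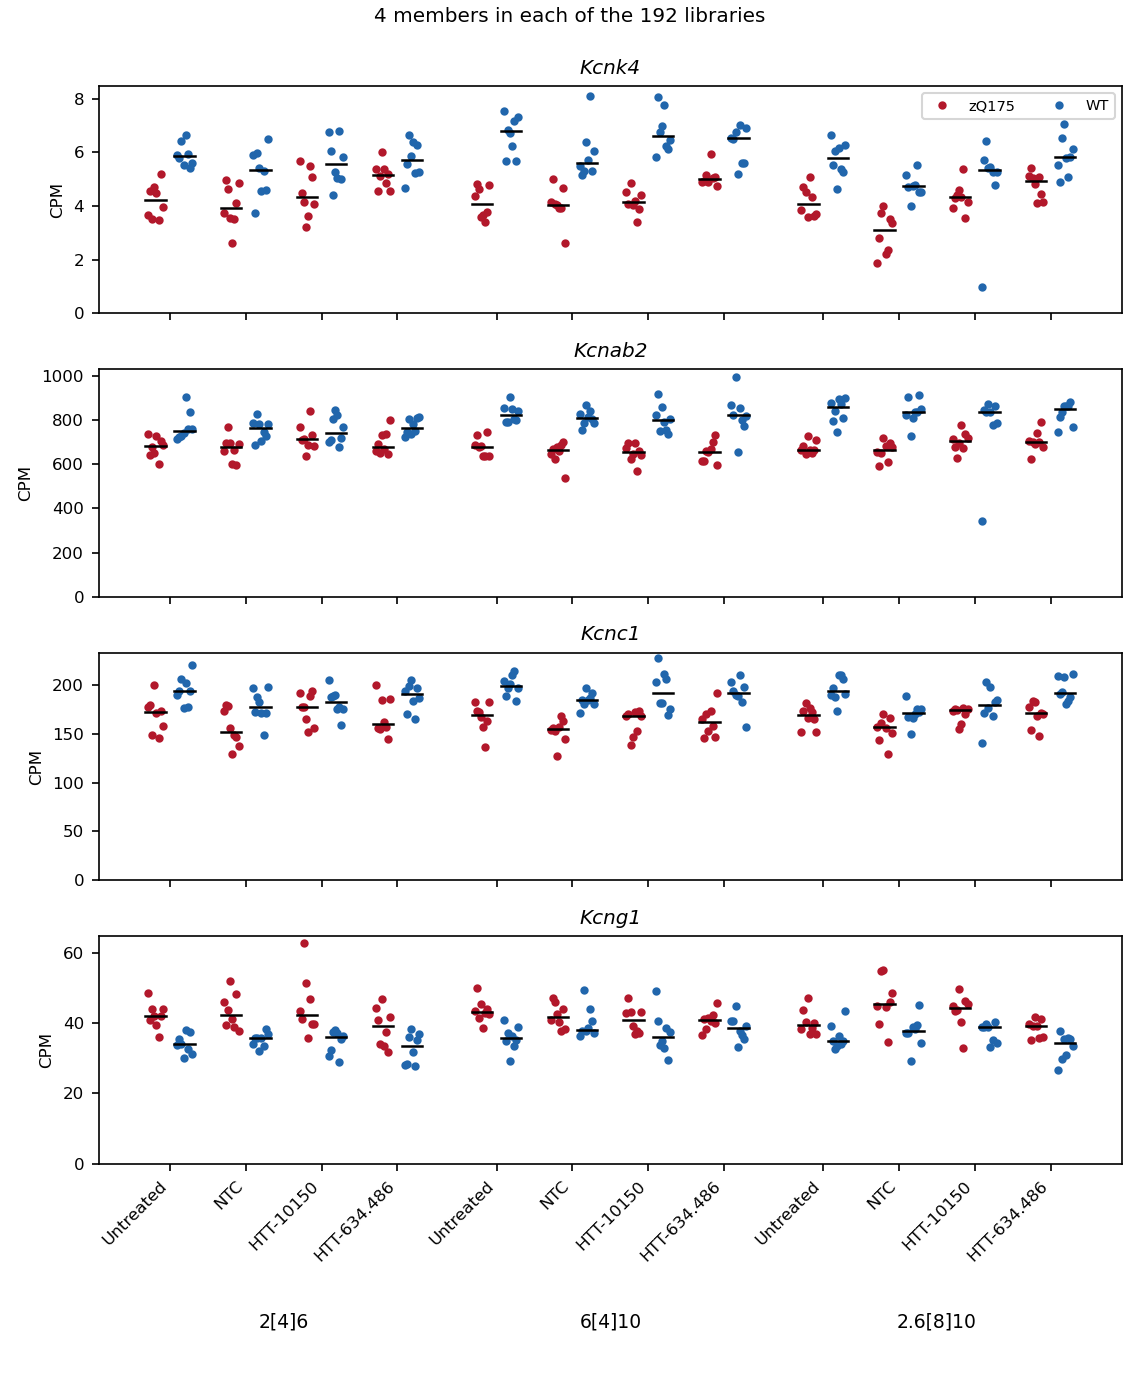
CPM (vertical axis, from 0) of Kcnk4, Kcnab2, Kcnc1 and Kcng1 in each library (points) by regimen and treatment (horizontal axis), zQ175 in red to the left of WT in blue, with the group median as a bar. Kcnk4, Kcnab2 and Kcnc1 are lower and Kcng1 higher in the zQ175 median of every pair, and 1 WT HTT-10150 library of 2.6[8]10 stands far below its group for Kcnk4 and Kcnab2.

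Kcnj9 (Kir3.3) and Kcnj3 (Kir3.1), subunits of the G protein-gated channel, fell in untreated 6[4]10 mice, at -0.28 (SE 0.06, adjusted p = 0.00153) and -0.15 (SE 0.05, adjusted p = 0.0394). Kcnj10 (Kir4.1), the astrocytic channel that buffers potassium, changed by -0.18, -0.11 and -0.15 and its partner Kcnj16 (Kir5.1) by -0.06, 0.08 and 0.07, and neither was called in untreated mice. Of the 11 astrocyte markers 5 were lowered and 1 raised in untreated mice of each regimen. Their sums ran from 4889 to 5644, from 4982 to 5797 and from 4445 to 5189 CPM in zQ175 mice of 2[4]6, 6[4]10 and 2.6[8]10. In WT mice they ran from 5288 to 6165, from 5820 to 6323 and from 5503 to 6272 CPM. Kcnj8 (Kir6.1), found in pericytes, changed by between -0.06 and 0.05 and was not called, and 0 of 8 pericyte and smooth muscle markers were called in untreated mice.

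Markers of neurons were also lowered. Of 8 markers of hippocampal neurons (Camk2a, Neurod6, Neurod2, Slc17a7, Rbfox3, Syt1, Snap25 and Snhg11), 3 in 2[4]6, 7 in 6[4]10 and 3 in 2.6[8]10 were lowered and 0 raised in untreated zQ175 mice. Their sums ran from 8856 to 9992, from 8609 to 9471 and from 8646 to 9386 CPM in zQ175 mice. In WT mice the sums ran from 9745 to 11833, from 10694 to 11876 and from 9739 to 11895 CPM. The part of these markers in the channel results was not tested. Of markers of finer neuronal types, 1, 3 and 1 of 5 CA1 pyramidal, 3, 5 and 3 of 8 CA3 and CA2 pyramidal and 2, 3 and 4 of 8 dentate granule genes were lowered in 2[4]6, 6[4]10 and 2.6[8]10, with 1 dentate gene raised in 2[4]6. Among 10 oligodendrocyte markers 1 was lowered in 2.6[8]10, and among 5 of oligodendrocyte precursors 1 was raised in 6[4]10. The 10 microglial, 9 endothelial, 11 choroid plexus and 10 thalamic and striatal markers gave 0 calls in untreated mice.

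The same genotype comparison was made within each siRNA. In NTC mice, 6 members fell and 2 rose in 2[4]6 (2.98% and 2.25% of all genes lowered and raised), 18 fell and 1 rose in 6[4]10 (8.14% and 6.58%), and 9 fell and 3 rose in 2.6[8]10 (5.94% and 4.49%). In HTT-10150 mice, 4 fell and 2 rose in 2[4]6 (3.08% and 3.51%), 20 fell and 1 rose in 6[4]10 (8.28% and 7.07%), and 12 fell and 3 rose in 2.6[8]10 (5.32% and 3.79%). In HTT-634.486 mice, 1 fell and 1 rose in 2[4]6 (1.48% and 0.664%), 20 fell and 2 rose in 6[4]10 (9.71% and 7.44%), and 3 fell and 0 rose in 2.6[8]10 (1.12% and 0.845%). Without the library with striatal markers, 23 members were called in NTC mice of 2.6[8]10 (15.1% of all genes), 14 in HTT-10150 mice (7.92%) and 9 in HTT-634.486 mice (4.54%). In the 2.6[8]10 HTT-10150 comparison, Kcnh4 changed by -1.57 (SE 0.35, adjusted p = 0.00161) and Kcna5 by -1.51 (SE 0.37, adjusted p = 0.00464) with all libraries, and neither was called without that library. Kcnip2 was likewise at -0.40 (SE 0.11, adjusted p = 0.00906) with all libraries and not called without it, and Kcnk2, at -0.36, was there below 0.

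Group medians were compared over the treatments for members called for genotype in untreated or NTC mice. Those calls chose the members, so a separation of their medians is not an independent result. The share of all genes with separate medians is not given. Kcnab2 medians ran from 653 to 712 CPM over the 12 zQ175 groups, against from 742 to 857 CPM over the 12 WT groups, with no overlap. Medians of Kcnh3 ran from 69.2 to 79.9 CPM in zQ175 groups, against from 81.5 to 94.1 CPM in WT groups. For Kcnip2 they ran from 127 to 155 CPM in zQ175 groups, against from 161.1 to 178.3 CPM in WT groups. The ranges of Kcng1 were likewise apart in the other direction, from 39.2 to 45.5 CPM in zQ175 groups, against from 33.5 to 38.8 CPM in WT groups, and so were those of Kcnk2, from 54.5 to 59.5 against from 50.1 to 53.1 CPM. Those of Kcna1, Kcnab1, Kcnc1, Kcng4, Kcnh7, Kcnk4, Kcnn2 and Kcnq3 overlapped. For Kcnk4 they ran from 3.09 to 5.16 CPM in zQ175 groups, against from 4.73 to 6.78 CPM in WT groups, the lowest zQ175 median being that of 2.6[8]10 NTC mice and the highest that of 2[4]6 HTT-634.486 mice.

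The siRNAs were then compared with NTC within a genotype. In zQ175 mice of 2[4]6, HTT-10150 and NTC mice differed in 3 of 80 members (3.75%), close to the 3.57% of all genes. HTT-10150 against untreated mice called 0 members, as given below, so the 3 differences rest on the comparison with NTC mice. Kcnma1, the BK pore subunit, had 55.9, 70.02 and 80.6 CPM in HTT-10150 mice, against 35.7, 51.9 and 70.3 CPM in NTC mice, and rose at 0.42 (SE 0.12, adjusted p = 0.0349). Kcna2 (Kv1.2), the axonal partner of Kv1.1, had 29.6, 35.1 and 39.8 CPM against 17.9, 25.8 and 34.3 CPM and rose at 0.42 (SE 0.12, adjusted p = 0.0293). Kcnq3 had 182, 213 and 259.7 CPM against 160.02, 185 and 205 CPM and rose at 0.26 (SE 0.07, adjusted p = 0.0263). The groups overlapped for each, and 3 of 8 HTT-10150 mice were above every NTC mouse for Kcnma1. Transcript length moved with this comparison: the 25% of genes with the longest transcripts had a median log2 change of 0.05 and the shortest 25% -0.07, and its part in the result was not tested. Vascular markers moved too: 8 of 9 endothelial and 2 of 8 pericyte and smooth muscle markers were raised and 0 lowered. The endothelial markers summed to 201 to 264 CPM in HTT-10150 mice, against 139 to 197 CPM in NTC mice. The pericyte and smooth muscle markers summed to 199.9 to 227 CPM in HTT-10150 mice, against 148.2 to 193 CPM in NTC mice. Neither sum overlapped between the groups, and the part of these markers in the result was not tested. HTT-634.486 against NTC called 0 members in 2[4]6 (0.0302% of all genes) and 5 against untreated mice (6.58%), among them Kcnma1 at -0.50 (SE 0.12, adjusted p = 0.00778), Kcna2 at -0.44, Kcnj6 at -0.42 and Kcnk9 at -0.40. In that comparison the longest genes stood at -0.06 and the shortest at 0.07. Of the markers, 6 of 9 endothelial were lowered and 3 of 10 oligodendrocyte raised in it. Endothelial sums were 123 to 199.7 CPM in HTT-634.486 mice, against 189.2 to 229 CPM in untreated mice. Oligodendrocyte sums were 5792 to 11759 CPM in HTT-634.486 mice, against 5858 to 7413 CPM in untreated mice. Both sums overlapped between the groups, and the part of these markers was not tested. Without the libraries rich in Ttr 0 members were called in this comparison (0.704% of all genes), and with each replicate number left out in turn 0 to 10. NTC against untreated mice called 0 members (0.0302%), and HTT-10150 against untreated 0 (0.00603%). At an unadjusted p under 0.05, 5, 17 and 3 of 80 members passed in these 3 comparisons with no call. Of all 16575 genes, 1038, 2512 and 842 passed. DESeq2 called 0 members in the first 2. With each replicate number left out in turn, 0 to 4 members were called for HTT-10150 against NTC, and without number 3 6 were called for NTC against untreated mice.

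In zQ175 mice of 2.6[8]10, Kcnk4 and Kcnq3 were higher in HTT-634.486 than in NTC mice (2.6% of 77 members, against 2.04% of all genes called). Kcnk4 had 4.11, 4.92 and 5.42 CPM in HTT-634.486 mice, against 1.87, 3.09 and 4.00 CPM in NTC mice. All 8 HTT-634.486 mice lay above all 8 NTC mice, at 0.67 (SE 0.15, adjusted p = 0.00657). Without the library with striatal markers the change was 0.67 (SE 0.10, adjusted p = 1.04e-05). NTC mice differed from untreated mice, which had 3.57, 4.09 and 5.06 CPM, by -0.48 (SE 0.15, adjusted p = 0.125), which missed the threshold, and HTT-634.486 mice differed from untreated mice by 0.19, which did too. HTT-10150 mice had 3.57, 4.32 and 5.36 CPM and differed from NTC mice by 0.53 (SE 0.15, adjusted p = 0.0774). Without the library with striatal markers, a WT mouse that enters only the estimate of the spread here, NTC mice were called lower than untreated mice, at -0.48 (SE 0.10, adjusted p = 0.00427), and HTT-10150 mice higher than NTC mice, at 0.54 (SE 0.10, adjusted p = 0.000918). Kcnq3 had 169.6, 180.6 and 203 CPM in HTT-634.486 mice, against 141, 154.5 and 181.1 CPM in NTC mice, at 0.22 (SE 0.06, adjusted p = 0.0158). Against untreated mice, HTT-634.486 mice were higher in Kcnj10, at 0.20 (SE 0.06, adjusted p = 0.0295), and lower in Kcns2 (Kv9.2), at -0.34 (SE 0.11, adjusted p = 0.049) (4.9% of all genes). Of the 11 astrocyte markers 4 were raised and 0 lowered in that comparison. They summed to 4990, 5716 and 6133 CPM in HTT-634.486 mice, against 4445, 4789 and 5189 CPM in untreated mice (lowest, median and highest), and their part in the result was not tested. Leaving out the library with striatal markers gave 6 members there (7.83%), without the libraries rich in Ttr 0 (1.9%), and with each replicate number left out in turn 0 to 1. Kcns2 was among the 6, at -0.34 (SE 0.10, adjusted p = 0.023). In the fit without that library NTC mice were also lower in Kcns2 than untreated mice, at -0.34 (SE 0.10, adjusted p = 0.0462). With all libraries, HTT-10150 against NTC, NTC against untreated and HTT-10150 against untreated called 0 members each (0.871%, 1.02% and 1.5% of all genes). At an unadjusted p under 0.05, 8, 10 and 8 of 77 members passed, against 1830, 1698 and 2383 of all 15852 genes. DESeq2 called 1 and 0 members in the first 2. With each replicate number left out in turn, HTT-634.486 against NTC called 0 to 2 members. Without the library with striatal markers the counts for HTT-10150 against NTC and NTC against untreated mice were 1, 3 and, for HTT-634.486 against NTC, 5 (2.12%, 2% and 4.36% of all genes).

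In zQ175 mice of 6[4]10, no member was called for HTT-10150 against NTC, HTT-634.486 against NTC, NTC against untreated or HTT-10150 against untreated (0.0672%, 0.959%, 0% and 0.0855% of all genes). At an unadjusted p under 0.05, 4, 9, 4 and 12 of the 80 members passed. Of all 16374 genes, 1109, 2773, 612 and 1744 passed. DESeq2 called 0 members in the first 3 of these comparisons. HTT-634.486 against untreated mice lowered Kcnd2, at -0.23 (SE 0.06, adjusted p = 0.018), and Kcns2, at -0.41 (SE 0.11, adjusted p = 0.0331) (3.9%). DESeq2 called 5 members there. Without the libraries rich in Ttr 0 members were called (0.268%), and with each replicate number left out in turn 0 to 1. Kcnk4 in 6[4]10 had 4.73, 4.99 and 5.93 CPM in zQ175 mice given HTT-634.486, against 2.62, 4.05 and 5.02 CPM in those given NTC, at 0.32 (SE 0.09, adjusted p = 0.0746), which did not pass the test. The order of medians was the same in 2[4]6, where the change was 0.34 (SE 0.11, adjusted p = 0.448).

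In WT mice, members were called in 2.6[8]10 and in neither other regimen, where HTT-10150 against NTC, HTT-634.486 against NTC and NTC against untreated called 0 (0.0664%, 0.0121% and 0% of all genes in 2[4]6, and 0.0183%, 0.0244% and 0% in 6[4]10). At an unadjusted p under 0.05, between 1 and 9 of the 80 members passed in these 6 comparisons. The genes passing ran from 614 of 16575 to 1259 of 16374. DESeq2 called 0 members. In 2.6[8]10, NTC against untreated WT mice called 2 members (0.694%), both lower. Kcnq3 had 155.6, 170.3 and 202 CPM in NTC mice, against 177, 209.6 and 252.6 CPM in untreated mice, at -0.27 (SE 0.06, adjusted p = 0.00646). Kcnb2 (Kv2.2), a delayed rectifier, had 19.8, 20.9 and 23.3 CPM against 21.6, 26.8 and 29.8 CPM, at -0.34 (SE 0.08, adjusted p = 0.0198). HTT-634.486 against NTC called the same 2 members in the other direction (0.751%), with Kcnq3 at 0.28 (SE 0.06, adjusted p = 0.00438) and Kcnb2 at 0.35 (SE 0.08, adjusted p = 0.013). Both comparisons share the NTC mice, and HTT-634.486 mice differed from untreated mice by 0.01 and 0.02. Without female 2 of the NTC group, which lacked the transcripts of either sex, NTC against untreated mice called 1 member, and with each replicate number left out in turn 0 to 2. For Kcnq3, 7 of 8 HTT-634.486 mice were above every NTC mouse. HTT-10150 against NTC called 5 members in WT mice (3.41%), with Kcnt1 at 0.88 (SE 0.18, adjusted p = 0.00189), Kcnj12 (Kir2.2) at 0.74 (SE 0.18, adjusted p = 0.0103), Kcna5 at 1.22 (SE 0.37, adjusted p = 0.0477), Kcnmb4 at -0.19 (SE 0.05, adjusted p = 0.0371) and Kcnk9 (TASK-3) at -0.47 (SE 0.14, adjusted p = 0.0396). These HTT-10150 mice include the library with striatal markers. Without it 2 members were called (1.66% of all genes), Kcnt1 at 0.38 (SE 0.09, adjusted p = 0.00864) and Kcnb2 at 0.27 (SE 0.06, adjusted p = 0.0107), and Kcnj12, Kcna5, Kcnmb4 and Kcnk9 were not. Kcnt1 in that fit was also lower in NTC than in untreated mice, at -0.34 (SE 0.08, adjusted p = 0.0158). It was higher in HTT-634.486 than in NTC mice, at 0.35 (SE 0.08, adjusted p = 0.015). These comparisons share the NTC mice, as do those of Kcnb2. HTT-10150 against untreated WT mice called 8 members, 4 higher and 4 lower (4.26% of all genes), among them Kcna5 at 1.57, Kcnh4 at 1.29, Kcnj2 at 0.73, Kcnk2 at 0.49, Kcna2 at -0.56, Kcnk9 at -0.47 and Kcnma1 at -0.48. When the library with striatal markers was left out 2 were called (1.63%), Kcna2 at -0.57 (SE 0.13, adjusted p = 0.0131) and Kcnn3 at -0.32 (SE 0.09, adjusted p = 0.0495), and with each replicate number left out in turn 1 to 11. Without that library the NTC comparison with untreated mice called 4 members and the HTT-634.486 comparison 7 (1.69% and 2.07% of all genes).

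Whether an siRNA contrast differed between the genotypes was tested as an interaction in each regimen. For NTC against untreated, HTT-10150 against NTC and HTT-634.486 against NTC, 0 members were called in any of the 9 tests, with backgrounds of 0%, 0% and 0% of all genes in 2[4]6, 0%, 0% and 0% in 6[4]10 and 0.0189%, 0.0126% and 0.00631% in 2.6[8]10 (edgeR). At an unadjusted p under 0.05, between 0 and 15 members passed. The 15, of 77, were for HTT-10150 against NTC in 2.6[8]10, where 945 of 15852 genes passed. The WT HTT-10150 mice of that test include the library with striatal markers. DESeq2 called 0 members over the 9 tests. The interaction for Kcnk4 under HTT-634.486 in 2.6[8]10 was 0.37 (SE 0.21, adjusted p = 0.973).

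Age was compared in untreated mice over all 192 libraries, and age is confounded with regimen. In zQ175 mice, Kcnh7 was lower at 10 than at 6 months in 6[4]10, at -0.32 (SE 0.09, adjusted p = 0.0275), as the only called member (2.27% of all genes). In 2.6[8]10 against 2[4]6, 4 members were lower (8.05%), with Kcnq3 at -0.35 (SE 0.07, adjusted p = 5.26e-05), Kcnh7 at -0.46 (SE 0.09, adjusted p = 0.000126), Kcnip4 at -0.24 (SE 0.06, adjusted p = 0.0061) and Kcnb2 at -0.28 (SE 0.08, adjusted p = 0.0119). In WT mice, 0 members were called in 6[4]10 against 2[4]6 (0.331%), where Kcnh7 changed by -0.22 (SE 0.09, adjusted p = 0.234), and 1 in 2.6[8]10 against 2[4]6 (7.86%), Kcnn1 (SK1) at -0.18 (SE 0.06, adjusted p = 0.0291). The genotype difference was not shown to grow with age for any member: the test of its difference from 2[4]6 called 0 members in 6[4]10 (0.0481%) and 0 in 2.6[8]10 (0.138%), with 1 and 3 members at an unadjusted p under 0.05 and 0 called by DESeq2. For Kcnq3 that difference was -0.21 (SE 0.09, adjusted p = 0.709) and for Kcnk4 -0.18 (SE 0.16, adjusted p = 1) in 6[4]10. Untreated mice of the same age in 2.6[8]10 and 6[4]10 differed in 0 members in zQ175 mice (2.72%) and 0 in WT mice (4.07%). At an unadjusted p under 0.05, 6 and 8 members passed, against 2450 and 2947 of 16627 genes, and DESeq2 called 0. Without the library with striatal markers, 3 and 7 members were called for age in zQ175 mice of 6[4]10 and 2.6[8]10 (2.94% and 10% of all genes), and 5 in WT mice of 2.6[8]10 (9.59%).

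Males and females differed in a small set of members. In 2[4]6, 8 members were called (6.71% of all genes), in 6[4]10 4 (1.15%) and in 2.6[8]10 2 (1.68%). Kcnk2 was higher in males, with 48.1, 56.3 and 66.4 CPM in males and 45.3, 52.0 and 64.6 CPM in females of 2[4]6 (lowest, median and highest of 32), at 0.12 (SE 0.02, adjusted p = 9.72e-05), and at 0.13 (SE 0.03, adjusted p = 0.00495) in 6[4]10. Kcnn1 was lower in males, with 12.6, 14.5 and 17.3 CPM in males and 14.1, 15.9 and 17.3 CPM in females of 2[4]6, at -0.12 (SE 0.02, adjusted p = 0.000947), and at -0.12 (SE 0.03, adjusted p = 0.00583) in 6[4]10. Kcnf1 (Kv5.1) was lower in males at -0.16 (SE 0.04, adjusted p = 0.00436) and -0.15 (SE 0.04, adjusted p = 0.0205) in 2[4]6 and 6[4]10, and Kcnip4 higher at 0.13 (SE 0.03, adjusted p = 0.00202) and 0.13 (SE 0.03, adjusted p = 0.0122) in 2[4]6 and 2.6[8]10. The sexes overlapped for each of these genes. Among the members called in 1 regimen each were Kcna6, Kcnc1 and Kcnj10, lower in males of 2[4]6 at -0.10, -0.11 and -0.10, Kcns1, higher in males of 6[4]10 at 0.20, and Kcnk13, lower in males of 2.6[8]10 at -0.24.

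The genotype difference itself was compared between the sexes over untreated and NTC mice, as the difference (zQ175 minus WT) in males minus that in females. In 2.6[8]10, 3 members were called (6.17% of all genes), and 0 in 2[4]6 and 0 in 6[4]10 (0% and 0.0179%). In 2[4]6 and 6[4]10, 4 and 8 members passed an unadjusted p under 0.05, against 1705 of 16938 and 1692 of 16746 genes. DESeq2 called 0 and 0 members there. Kcne2, a KCNE subunit of the choroid plexus and stomach, had an interaction of 10.19 (SE 1.91, adjusted p = 0.000852). In untreated mice of 2.6[8]10 it stood at 0.244, 18.8, 31.5 and 53.3 CPM in the 4 zQ175 males and 0.688, 0.258, 0.844 and 0.420 CPM in the 4 zQ175 females, against 0.462, 0.118, 0.479 and 0.487 CPM in the 4 WT males and 0.743, 38.4, 22.2 and 49.5 CPM in the 4 WT females. Ttr exceeded 1000 CPM in the same 3 zQ175 males and 3 WT females and in no other mouse of these 16. Over all 192 libraries Kcne2 ran from 5.87 to 78.6 CPM in the 43 with Ttr above 1000 CPM and from 0.0358 to 8.45 CPM in all others. Kcnk1 had an interaction of 0.29 (SE 0.09, adjusted p = 0.0331) and Kcnn1 of -0.25 (SE 0.08, adjusted p = 0.0489). Without the 43 libraries rich in Ttr, which leaves fewer mice, 0 members and 0% of all genes were called. The 11 choroid plexus markers of mice of 2.6[8]10 summed to between 44.4 and 9572 CPM in untreated zQ175 mice and between 58.6 and 8866 CPM in untreated WT mice. Kcne2 was also called higher in zQ175 than in WT mice given HTT-634.486 in 6[4]10, at 3.75 (SE 1.295, adjusted p = 0.0357), where 3 zQ175 libraries and 1 WT library exceeded the Ttr limit.

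Partners of these channels without a Kcn symbol were described from a list of 30 genes, of which 29 were tested in each regimen. In untreated mice of 2[4]6, 2 were lowered and 0 raised (2.29% and 1.86% of all genes). In 6[4]10, 4 were lowered and 2 raised (6.19% and 5.35%). In 2.6[8]10, 7 were lowered and 1 raised (6.45% and 4.66%). Median log2 changes of the tested partners were -0.04, -0.08 and -0.02, beside the medians of all genes given above. Cntnap2 (Caspr2), which clusters Kv1 channels beside the nodes of Ranvier, fell in all 3 regimens, at -0.27 (SE 0.06, adjusted p = 0.00168), -0.35 (SE 0.08, adjusted p = 0.00119) and -0.25 (SE 0.08, adjusted p = 0.0275). Lingo1, an auxiliary protein of BK channels, fell at -0.27 (SE 0.06, adjusted p = 0.00182), -0.34 (SE 0.04, adjusted p = 7.91e-08) and -0.40 (SE 0.10, adjusted p = 0.00337). Dpp6, an auxiliary subunit of Kv4, and Dlg4 (PSD-95), a scaffold that binds Kv1 and Kir2 channels, fell in both regimens of 10 months. Dpp6 was at -0.14 (SE 0.04, adjusted p = 0.0151) and -0.16 (SE 0.04, adjusted p = 0.0118), and Dlg4 at -0.17 (SE 0.05, adjusted p = 0.00773) and -0.28 (SE 0.05, adjusted p = 6.63e-05). Lrrc26, a BK gamma subunit, fell in 2.6[8]10 at -0.94 (SE 0.20, adjusted p = 0.000541). The pacemaker channel gene Hcn3 rose in both regimens of 10 months, at 0.27 (SE 0.08, adjusted p = 0.0245) and 0.41 (SE 0.07, adjusted p = 7.83e-05), and Cntn2, the partner of Caspr2, rose in 6[4]10 at 0.23 (SE 0.06, adjusted p = 0.00587).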

How the data were processed

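Expected counts per gene, deposited by the authors and made with RSEM on GRCm38 per the submitters' processing notes, were rounded to whole numbers. No source used here gives the aligner, the strand setting or the annotation release. Gene symbols were taken from GENCODE vM21. Per the labels each library is 1 mouse, and libraries were grouped by genotype, treatment and regimen. A separate model per regimen was fitted with edgeR 4.0.16 (quasi-likelihood test, TMM factors, genes kept by filterByExpr, sex as a covariate, R 4.3.3), and age comparisons were fitted over all 192 libraries. p-values were Benjamini-Hochberg adjusted over all tested genes, with a threshold of 0.05. The fit was tested on simulated data: for untreated mice of 2[4]6 (16499 genes) it called 56% of genes changed 1.25-fold and 90% of genes changed 1.5-fold. Smaller changes, and the other regimens with the library with striatal markers, were not simulated. Alternatives were DESeq2 1.42.0, its size factors in edgeR, no filter, a replicate block, each replicate number left out, 3 libraries of doubtful sex left out, and, chosen after seeing the data, the library with striatal markers or the libraries rich in Ttr left out.

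Named were members called in 1 direction in the untreated or NTC comparison of at least 2 regimens, members called in other comparisons, the most abundant member of each class, and members given beside a marker list. Some members that these rules name are not reported here, and counts include them. Exact permutation tests of single members are not given, since those members were chosen by the fit's calls on the same mice. Values come from the fit with every library unless stated. The members and lists were chosen with earlier results of these data known. The depth of each library limits low members, and p-values cover the spread between mice.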

Additional observations from a re-analysis of the deposited data

Results flagged for a closer look

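In 72 combinations of a member and a group of 8 untreated mice tested for a mouse far from the others (Dixon's test, which flags about 1 in 20 by chance), 4 were flagged. Kcng4 stood at 13.6 CPM in female 1 of the 2.6[8]10 untreated zQ175 group, against 4.49 to 6.55 CPM in its 7 group mates. Kcnh7 stood at 35.2 CPM in female 1 of the 6[4]10 untreated zQ175 group, against 48.2 to 56.7 CPM in the others, and Kcnq3 at 162.7 CPM in male 2 of the same group, against 188.3 to 210.2 CPM. Kcnn2 stood at 61.7 CPM in male 2 of the 2.6[8]10 untreated WT group, against 47.8 to 53.0 CPM in the others.

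The genotype difference in 2.6[8]10 differed between the sexes for 3 members by the interaction test (zQ175 minus WT in males, minus the same in females), at 10.19 for Kcne2, 0.29 for Kcnk1 and -0.25 for Kcnn1 on the log2 scale. The value for Kcne2 moves with Ttr, as described above, and without the libraries rich in Ttr, which leaves fewer mice, 0 of the 3 and 0% of all genes were called.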

How the results depend on the processing

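Leaving out the library with striatal markers, chosen after seeing the data, moved the count of called members in 2.6[8]10 to 16 in untreated, 23 in NTC and 9 in HTT-634.486 mice for genotype. It gave 3 for NTC against untreated, 1 for HTT-10150 against NTC and 5 for HTT-634.486 against NTC in zQ175 mice, and 4, 2 and 7 for the same in WT mice. For age it gave 5 in WT mice and 7 in zQ175 mice of 2.6[8]10, and 3 in zQ175 mice of 6[4]10. Leaving out the 43 libraries rich in Ttr, also chosen after seeing the data, left fewer mice and gave 1, 2 and 1 members for genotype in untreated, NTC and HTT-634.486 mice of 2[4]6, 12 and 14 in NTC and HTT-634.486 mice of 6[4]10 and 6 in untreated mice of 2.6[8]10. In 2.6[8]10 it gave 1 for HTT-10150 against NTC in zQ175 mice (0.667% of all genes). In WT mice of 2.6[8]10 it gave 0 for NTC against untreated (0.157%) and 9 for HTT-10150 against NTC (5.85%). The WT HTT-10150 group of that fit is smaller and still holds the library with striatal markers. Leaving out the libraries rich in Ttr gave 0 for age in WT mice of 2.6[8]10, 2 in zQ175 mice of 6[4]10 and 0 for genotype by sex in 2.6[8]10. DESeq2 called 10 for genotype in HTT-10150 mice of 2[4]6, 7 and 1 for HTT-10150 against NTC in zQ175 mice of 2[4]6 and 2.6[8]10, and 2 for age in zQ175 mice of 6[4]10. With no filter, 3 were called for genotype in HTT-10150 mice of 2[4]6 and 3 for HTT-10150 against NTC in WT mice of 2.6[8]10. Without the 3 libraries of doubtful sex, 1 was called for NTC against untreated and 2 for HTT-10150 against NTC in WT mice of 2.6[8]10. Where no construction accounts for a move, the cause was not tested.

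Leaving out each replicate number in turn (6 mice a group remain) gave ranges for genotype of 2 to 4, 1 to 6, 1 to 3 and 1 to 2 members in untreated, NTC, HTT-10150 and HTT-634.486 mice of 2[4]6, 9 to 14, 11 to 15, 12 to 17 and 7 to 24 in 6[4]10, and 5 to 10, 3 to 14, 9 to 14 and 0 to 9 in 2.6[8]10. In zQ175 mice the range was 0 to 6 for NTC against untreated and 0 to 4 for HTT-10150 against NTC in 2[4]6, and 0 to 2 for HTT-634.486 against NTC in 2.6[8]10. In WT mice of 2.6[8]10 it was 0 to 2 for NTC against untreated, 1 to 4 for HTT-10150 against NTC and 0 to 3 for HTT-634.486 against NTC. For age it was 0 to 0 in WT mice and 3 to 5 in zQ175 mice of 2.6[8]10 and 0 to 2 in zQ175 mice of 6[4]10, and for genotype by sex in 2.6[8]10 it was 0 to 8. The share of all genes called in these smaller fits is not given. A move in the count of members therefore cannot be told from a general move in calls.

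Same-numbered libraries did not deviate together (mean correlation from -0.065 to 0.153 by regimen, sex and number, with a negative lowest pair in each), so the numbers name mice and do not pair them. With a replicate block the genotype counts in untreated mice were 6, 20 and 11 in 2[4]6, 6[4]10 and 2.6[8]10, and all 41 counts stayed within 1.5 times. Outside these, HTT-634.486 against untreated zQ175 mice gave 6 members with the block, against 2 without it, in 6[4]10. With no filter, 3 were called for it in 2[4]6 and 5 for HTT-10150 against untreated WT mice of 2.6[8]10. Of 840 alternative values of 84 named changes, 0 reversed, 706 stayed on the same side of the threshold, 118 lost it and 16 gained it. Members under about 1 CPM were limited by depth.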
